A study of Mus musculus with 17 samples.

Results

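Microglia are the resident macrophages of the brain, and 35 genes that mark them or their states were followed in the hippocampus of adult mice whose mothers differed in age and in treatment with rapamycin, an inhibitor of the mTOR kinase. The genes were taken by name from a list. Of the 35 names, 34 matched one of the 24491 gene symbols in the count tables, 1 did not and was not replaced, and 33 were among the 14877 genes with enough counts to be tested. The gene left out by the count filter was Cst7, with 0 to 9 counts per library. The 10 hippocampus libraries came from wild-type CD1 females of 40 to 44 weeks, about 10 months, with 1 hippocampus frozen for RNA. Their mothers were young (n = 4 libraries), aged (n = 3) or aged and treated with intraperitoneal rapamycin (2 mg/kg, begun in week 8 and kept up for 40 weeks, n = 3). The labels give ages of 4 and 48 weeks for the females whose oocytes were sequenced in the same series. Libraries are named below by the mother's group and the replicate number, for example aged 2. The agent was given to the mothers, and the offspring groups differ only in the mother as far as the labels say.

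Microglia arise from yolk sac precursors, settle in the brain before birth and renew themselves there, kept alive by signals through the receptor Csf1r. In the healthy brain they survey the tissue with fine processes, clear debris and synapses, and express a set of surface genes often called homeostatic, such as P2ry12, Cx3cr1 and Tmem119. In ageing and disease many of them lower these genes and raise others, among them Apoe, Lpl, Cd9 and Cst7.

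None of the 33 genes differed between the offspring groups after adjustment, in any of the 3 comparisons, with the quasi-likelihood test of edgeR and Benjamini-Hochberg adjustment over all 14877 genes at a threshold of 0.05. DESeq2 also called 0 of them in each comparison. Over all genes tested, edgeR called 0.0471% in offspring of aged against young mothers, 0% in offspring of rapamycin-treated against untreated aged mothers and 0.0538% in offspring of rapamycin-treated against young mothers. At an unadjusted p under 0.05 there were 4, 2 and 3 of the 33 microglia genes in the same order, beside 3.51%, 4.52% and 3.63% of all genes. The lowest adjusted p of any microglia gene in edgeR was 0.990, 0.796 and 0.999. The smallest unadjusted p for aged against young mothers belonged to Cx3cr1, Gpr34, Ptprc and P2ry12, while Fcrls and the C1q subunits had wide differences between libraries of the same group.

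Libraries held 16434398 to 20220617 counts, so that 3 counts corresponded to 0.148 to 0.183 CPM of the plain library totals. The hippocampus levels given for single genes and lists are CPM of library sizes scaled by TMM. The lymphocyte list of 10 genes had 0 tested members, and its summed level was 0.201 to 0.996 CPM per library. Of 14 genes of monocytes, neutrophils and blood, 2 were tested, Lyz2 at 2.92 to 11.3 CPM and Alas2 at 0.866 to 4.06 CPM. Lcn2, which was not tested, ranged from 0 to 11.3 CPM. The summed level of the 14 was 6.44 to 23.5 CPM per library and was highest in young 1. The 4 haemoglobin genes were at 0 in every library. Why they were at exactly 0 was not tested, and these zeros are not read as an absence of blood. Border macrophages, which share many genes with microglia, were represented by 12 genes, of which 9 were tested and 0 passed in any comparison. The summed level of the 12 was 13.4 to 29.6 CPM in offspring of young mothers. It was 12.3 to 25.7 in those of aged mothers and 23.4 to 27.8 in those of treated mothers. Median log2 differences of the 9 were 0.16 for aged against young, 0.64 for treated against aged and 0.32 for treated against young. Above 0 were 5, 7 and 7 of the 9 in the same order. With an edgeR unadjusted p under 0.05 were 0, 2 and 1, all higher, beside 3.51%, 4.52% and 3.63% of all genes. In these bulk samples, fewer microglia and less RNA per microglial cell cannot be told apart. Whether each library is a separate animal is not given in the labels, and the p-values therefore reflect only the scatter among these libraries, which may be technical in part.

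Per kilobase of the longest coding transcript in GENCODE M21, the levels of the 33 tested genes ran from 0.672 CPM per kilobase for Ptprc, the leukocyte phosphatase CD45, to 2034 for Apoe, a lipid carrier made chiefly by astrocytes in the healthy brain. Ctss, a lysosomal protease, came next at 82.1, followed by C1qa at 77.8, Cd9 at 45.1 and C1qb at 38.6. Csf1r stood at 23.5 and P2ry12 at 27.7. Apoe and Cd9 are also expressed outside microglia, and so is Lpl in neurons. Apoe alone made up most of the summed level of the list, which was 2531 to 6472 CPM.

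**Figure D1:**
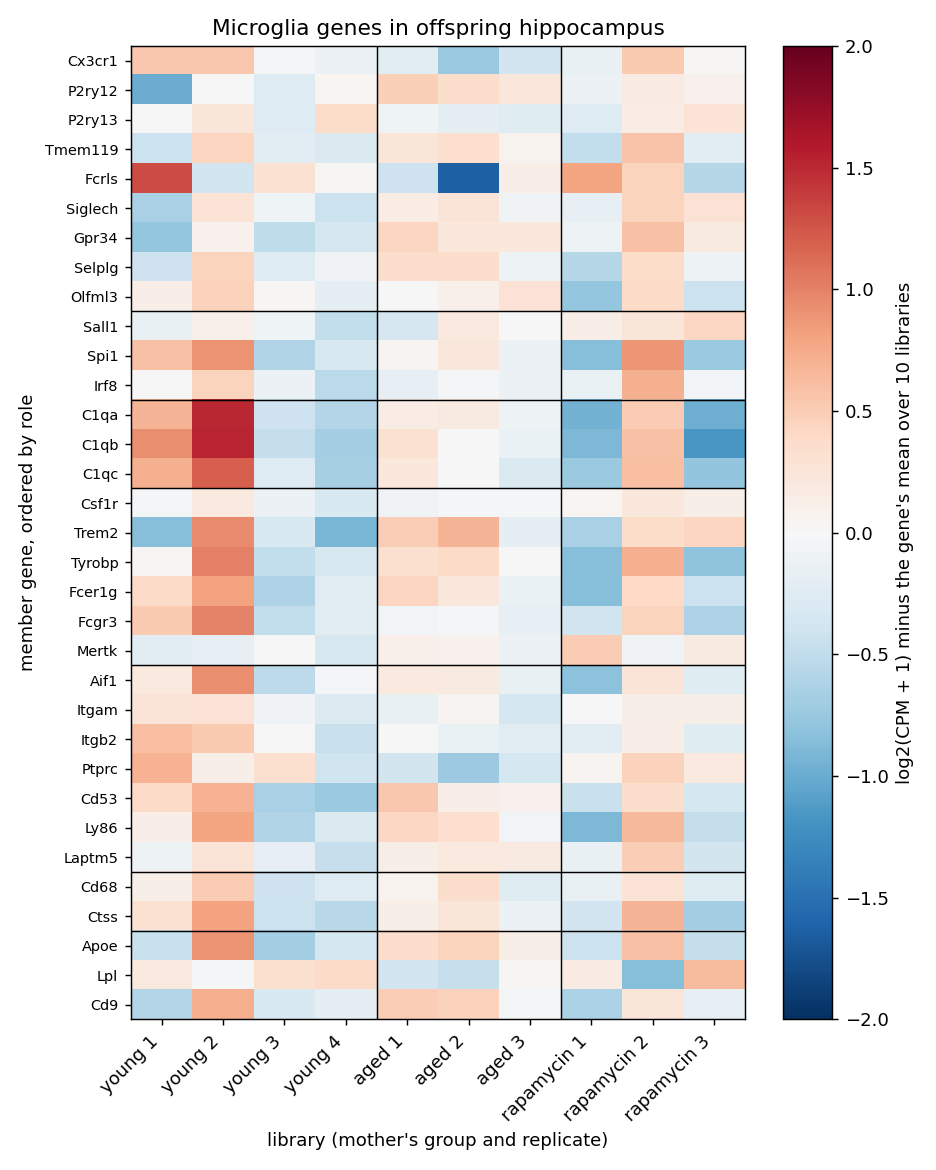
Deviation of each of the 33 tested microglia genes (rows, by role) from its own mean over the 10 libraries (columns, by mother's group and replicate), in log2 units of CPM + 1. Young 2 and rapamycin 2 were above the mean in 30 and 31 of the 33 genes, while young 3 and young 4 were above it in 4 each.

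Promoter sequences are shown for 4 genes: the C1q subunits C1qb and C1qc, which were high and low in the same libraries, and the homeostatic genes P2ry12 and Fcrls, whose order of libraries differed from theirs. Each is the 250 bases before the gene's start in RefSeq on GRCm38.p6, read 5′ to 3′ on the gene's strand, which is the minus strand for all 4. Capitals mark GGAAGT or its reverse complement ACTTCC, the core bound by PU.1, the factor encoded by Spi1.
C1qb: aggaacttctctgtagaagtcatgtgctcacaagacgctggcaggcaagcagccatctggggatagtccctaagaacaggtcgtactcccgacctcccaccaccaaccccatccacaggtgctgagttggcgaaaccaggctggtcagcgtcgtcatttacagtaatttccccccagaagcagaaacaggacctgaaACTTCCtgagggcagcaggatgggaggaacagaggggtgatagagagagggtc
C1qc: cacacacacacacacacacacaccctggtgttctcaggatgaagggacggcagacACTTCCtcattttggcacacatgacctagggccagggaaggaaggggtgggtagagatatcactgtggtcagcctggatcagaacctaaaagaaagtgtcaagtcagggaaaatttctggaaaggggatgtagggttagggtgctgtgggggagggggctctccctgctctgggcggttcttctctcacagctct
P2ry12: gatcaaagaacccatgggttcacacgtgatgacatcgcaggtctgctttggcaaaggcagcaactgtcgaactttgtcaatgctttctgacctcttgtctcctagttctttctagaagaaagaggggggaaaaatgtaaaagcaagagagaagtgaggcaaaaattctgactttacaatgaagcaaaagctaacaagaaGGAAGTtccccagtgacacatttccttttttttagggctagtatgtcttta
Fcrls: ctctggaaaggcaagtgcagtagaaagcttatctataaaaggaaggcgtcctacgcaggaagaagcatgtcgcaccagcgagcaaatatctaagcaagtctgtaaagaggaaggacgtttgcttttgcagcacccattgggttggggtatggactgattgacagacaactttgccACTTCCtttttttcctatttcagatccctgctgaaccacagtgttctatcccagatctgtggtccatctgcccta
They lie at chr4:136886201-136886450, chr4:136892915-136893164, chr3:59262986-59263235 and chr3:87263525-87263774. The first match starts 53 bases before the start in C1qb, 195 in C1qc, 51 in P2ry12 and 75 in Fcrls. Both strands were searched. The core was found in 9 of the 25 listed genes with a promoter in the RefSeq table (36%), beside 22.2% of 27025 genes, and its longer form GAGGAAGT, which contains it, in 1 of 25 (4%) beside 2.79%. All 4 genes shown are among the 9 with the core, so they do not represent the 25. Cx3cr1, for example, had no match in its promoter. A match describes the letters only.

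Homeostatic surface and secreted genes had differences of both signs between offspring of aged and of young mothers, and 0 of the 9 tested passed the threshold in any comparison. Cx3cr1, the receptor for the neuronal chemokine fractalkine (chr9:119901616-120069879, GRCm38), stood at 47.5, 47.4, 31.6 and 29.8 CPM in offspring of young mothers, at 27.7, 18.8 and 24.6 in those of aged mothers and at 28.9, 46.7 and 32.7 in those of treated mothers. All 3 libraries of the aged group were below the 4 of the young group and the 3 of the treated group. The log2 difference was -0.72 ± 0.24 (SE) for aged against young (edgeR unadjusted p = 0.0113, adjusted p = 0.990) and 0.61 ± 0.25 for treated against aged (unadjusted p = 0.0337, adjusted p = 0.796). These contrasts share the aged group. For treated against young mothers the difference was -0.11, with a 95% interval of -0.63 to 0.40.

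P2ry12, the purinergic receptor that draws microglial processes toward released nucleotides (chr3:59216272-59262871), had the opposite order. Its levels were 31.2, 63.6, 52.2 and 65.0 CPM in offspring of young mothers, 88.4, 80.5 and 73.9 in those of aged mothers and 58.2, 70.6 and 66.6 in those of treated mothers. The aged group lay above both other groups without overlap. The log2 difference was 0.61 ± 0.22 for aged against young (edgeR unadjusted p = 0.0177, adjusted p = 0.990), and -0.31 with a 95% interval of -0.83 to 0.20 for treated against aged. Young 1 was the lowest library for this gene, at 31.2 CPM.

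Gpr34, a lysophosphatidylserine receptor of microglia (chrX:13632089-13640858), stood at 13.6, 25.5, 16.6 and 18.9 CPM in offspring of young mothers, 32.5, 27.9 and 27.7 in those of aged mothers and 22.3, 36.4 and 27.3 in those of treated mothers. The aged group was above the young group without overlap, and the treated group overlapped both. The log2 difference from offspring of young mothers was 0.66 ± 0.22 for the aged group (edgeR unadjusted p = 0.0131, adjusted p = 0.990) and 0.62 ± 0.22 for the treated group (unadjusted p = 0.0173, adjusted p = 0.999). Both differences are taken against the same 4 libraries. P2ry12 and the related receptor P2ry13 lie inside Med12l and Gpr34 inside Cask, each on the opposite strand, and because the strand setting of the counting is not stated, reads of these genes and of their hosts may not be separated.

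Of the other homeostatic genes, Tmem119, a surface protein used to tell microglia from blood macrophages, stood at 28.7, 53.2, 33.2 and 31.8 CPM in the young group, 46.6, 49.6 and 41.3 in the aged group and 27.6, 58.5 and 33.5 in the treated group. The groups overlapped, with a log2 difference of 0.32 for aged against young (95% interval -0.28 to 0.92). Siglech, a sialic acid receptor, read 10.0, 19.9, 15.3 and 11.9 CPM, then 18.2, 19.8 and 15.5, then 14.5, 22.7 and 20.3 in the same group order. Its groups overlapped as well. Fcrls, an Fc receptor-like gene of microglia, had the widest range of all, at 38.9, 11.3, 18.9 and 15.4 CPM in the young group, 11.1, 4.21 and 16.8 in the aged group and 27.0, 20.9 and 9.91 in the treated group. Its highest library was 9.24 times its lowest, and its interval for aged against young ran from -2.15 to 0.19. P2ry13, Selplg and Olfml3 ranged from 9.54 to 47.0 CPM.

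**Figure D2:**
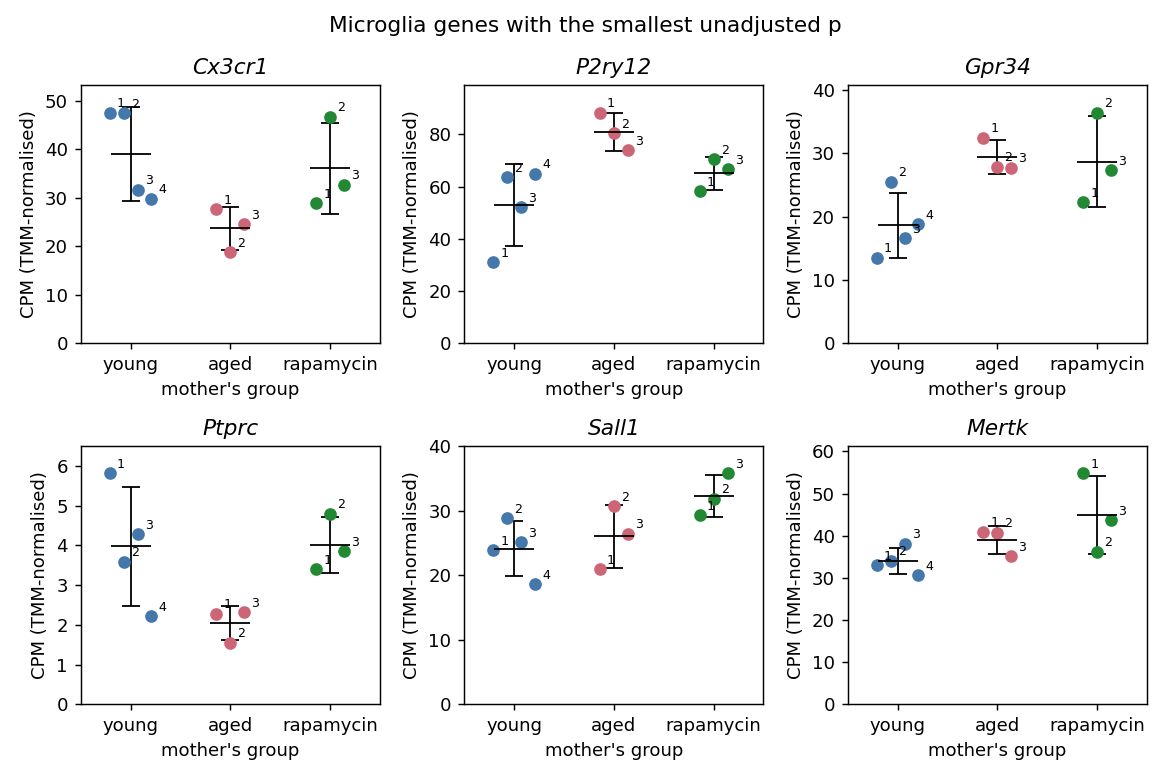
CPM of 6 microglia genes with unadjusted p under 0.05 in at least 1 comparison (vertical axes from 0), by mother's group, with 1 numbered point per library and the mean ± SD (n = 4, 3 and 3). Cx3cr1 and Ptprc had their lowest means in the aged group, at 18.8 to 27.7 and 1.55 to 2.31 CPM, and P2ry12 its highest, at 73.9 to 88.4 CPM.

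Non-overlap between groups was seen for few of the microglia genes. Between offspring of aged and of young mothers, 2 of 33 were higher in every library of the aged group (P2ry12 and Gpr34) and 1 was lower (Cx3cr1), beside 5.44% of all genes in either direction. Between treated and untreated aged mothers, 3 were higher (Cx3cr1, Csf1r and Ptprc) and 1 lower (P2ry12), beside 9.89%. Between treated aged and young mothers, 1 was higher (Sall1), beside 5.03%.

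The 3 lineage transcription factors did not pass the threshold in any comparison. Sall1, a factor that keeps microglial identity, stood at 23.9, 28.8, 25.1 and 18.6 CPM in the young group, 20.9, 30.7 and 26.4 in the aged group and 29.3, 31.9 and 35.8 in the treated group. All 3 treated libraries were above all 4 young ones, with a log2 difference of 0.42 ± 0.18 (edgeR unadjusted p = 0.0356, adjusted p = 0.999). Irf8, an interferon regulatory factor needed for microglial development, read 7.69, 10.9, 7.04 and 5.01 CPM, then 6.84, 7.65 and 7.03, then 6.95, 13.4 and 7.46 in the same order. Spi1 encodes PU.1, the master regulator of the myeloid lineage, and ranged from 2.79 CPM in rapamycin 1 to 11.8 in young 2. The groups of both genes overlapped.

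C1qa, C1qb and C1qc encode the 3 chains of C1q, the molecule that starts the classical complement pathway, and lie next to each other on chromosome 4 (136895917-136898803, 136880129-136886187 and 136889804-136893065). C1qa stood at 113, 202, 52.5 and 46.6 CPM in the young group, 77.9, 79.6 and 65.1 in the aged group and 35.9, 101 and 35.2 in the treated group. C1qb read 68.6, 104, 25.3 and 21.9 CPM, then 44.3, 35.4 and 32.4, then 18.7, 53.8 and 15.3. C1qc ranged from 17.2 CPM in rapamycin 3 to 71.0 in young 2. For each chain the highest libraries were young 2, young 1 and rapamycin 2, in that order, and the lowest were rapamycin 3, rapamycin 1 and young 4. The treated group alone spanned more CPM than the largest distance between group means. All 3 chains had means below those of the young group in both other groups, at log2 differences of -0.45 to -0.55 for the aged group and -0.61 to -0.91 for the treated group. None passed the threshold, and the 95% interval of C1qb for treated against young ran from -2.18 to 0.36.

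Among receptors and signalling adaptors, Csf1r, the receptor for the growth factors Csf1 and Il34, was the steadiest gene of the list. It stood at 109, 126, 101 and 89.2 CPM in the young group, 105, 108 and 107 in the aged group and 113, 127 and 119 in the treated group, and its highest library was 1.43 times its lowest. Its log2 difference was 0.00 for aged against young (95% interval -0.28 to 0.29) and 0.17 for treated against aged (-0.14 to 0.47). Of its exon bases, 15.1% are shared with Hmgxb3 on the opposite strand. Mertk, a receptor for the engulfment of dying cells that astrocytes also carry, read 33.0, 34.0, 38.1 and 30.6 CPM, then 41.0, 40.7 and 35.1, then 54.8, 36.2 and 43.7. Treated and young groups overlapped, and their log2 difference was 0.40 ± 0.15 (edgeR unadjusted p = 0.0217, adjusted p = 0.999). Trem2, a lipid-sensing receptor, its adaptor Tyrobp, and the Fc receptor genes Fcer1g and Fcgr3 ranged from 0.913 to 30.9 CPM, each with a range of 3.70 to 5.49 times between its lowest and highest library. Trem2 had a log2 difference of 0.49 for aged against young, with a 95% interval of -0.63 to 1.61.

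The 7 pan-leukocyte and myeloid genes included Ptprc, at chr1:138062861-138175708, whose levels were 5.81, 3.59, 4.27 and 2.22 CPM in the young group, 2.28, 1.55 and 2.31 in the aged group and 3.40, 4.79 and 3.85 in the treated group. The treated group was above the aged group without overlap, and young 4 lay inside the range of the aged group. Log2 differences were -0.95 ± 0.33 for aged against young (edgeR unadjusted p = 0.0143, adjusted p = 0.990) and 0.97 ± 0.34 for treated against aged (unadjusted p = 0.0175, adjusted p = 0.796). They rest on 28 to 99 counts per library. Laptm5, a lysosomal membrane protein of blood-lineage cells, read 44.1, 56.4, 42.1 and 34.1 CPM, then 51.3, 54.0 and 53.4, then 42.5, 66.8 and 36.3. Itgam, the integrin chain CD11b, read 34.2, 35.1, 27.2 and 23.5 CPM, then 25.5, 29.7 and 22.2, then 28.6, 30.9 and 31.1. The groups of both genes overlapped, and Aif1, Itgb2, Cd53 and Ly86 ranged from 5.02 to 27.5 CPM, also with overlapping groups.

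The 2 lysosomal genes overlapped between all groups. Ctss read 130, 184, 77.7 and 71.5 CPM in the young group, 114, 124 and 97.1 in the aged group and 80.2, 169 and 65.2 in the treated group. Cd68, a lysosomal membrane glycoprotein, read 8.98, 12.0, 5.88 and 6.71 CPM, then 8.62, 10.7 and 6.73, then 7.25, 10.1 and 6.76. For both genes the whole aged group lay between the lowest and the highest library of the young group.

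Genes of the disease-associated state gave differences of both signs. Apoe stood at 1973, 4976, 1682 and 2093 CPM in the young group, 3418, 3648 and 2913 in the aged group and 1981, 4036 and 1918 in the treated group. The 3 aged libraries lay between young 2 and the other 3 young libraries. Lpl, lipoprotein lipase, read 81.9, 70.2, 89.2 and 93.4 CPM, then 54.6, 51.7 and 72.9, then 80.7, 39.2 and 112. Rapamycin 2, among the highest libraries for most of the list, was the lowest for Lpl. Cd9, a tetraspanin, ranged from 33.5 CPM in rapamycin 1 to 87.9 in young 2. None of the 3 tested genes passed, and the log2 difference of Apoe was 0.31 for aged against young (95% interval -0.53 to 1.16).

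**Figure D3:**
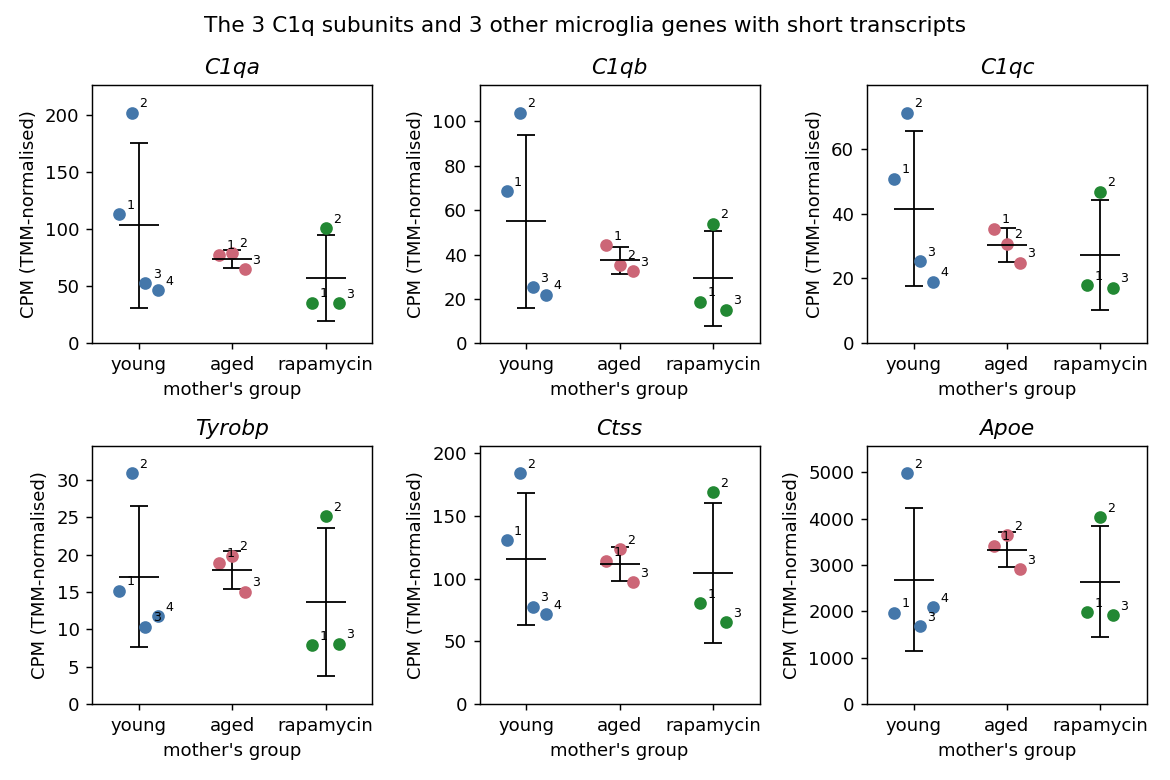
CPM of the 3 C1q subunits and 3 other microglia genes with short transcripts (vertical axes from 0), by mother's group, with 1 numbered point per library and the mean ± SD (n = 4, 3 and 3). For the genes shown, young 2 and rapamycin 2 were the highest libraries of their groups, at 202 and 101 CPM for C1qa. Not every short transcript had this order: for Trem2, not shown, rapamycin 3 at 11.1 CPM was above rapamycin 2 at 10.6.

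Across the list, the highest and the lowest library were often the same ones. Young 2 was the highest library for 18 of the 33 genes and rapamycin 2 for 6, while rapamycin 1 was the lowest for 10 and young 4 for 8. The median log2 difference over the 33 genes was 0.01 for aged against young (18 above 0 and 15 below), -0.11 for treated against aged (12 and 21) and -0.11 for treated against young (12 and 21), beside -0.01, 0.02 and 0.01 over all genes tested.

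**Figure D4:**
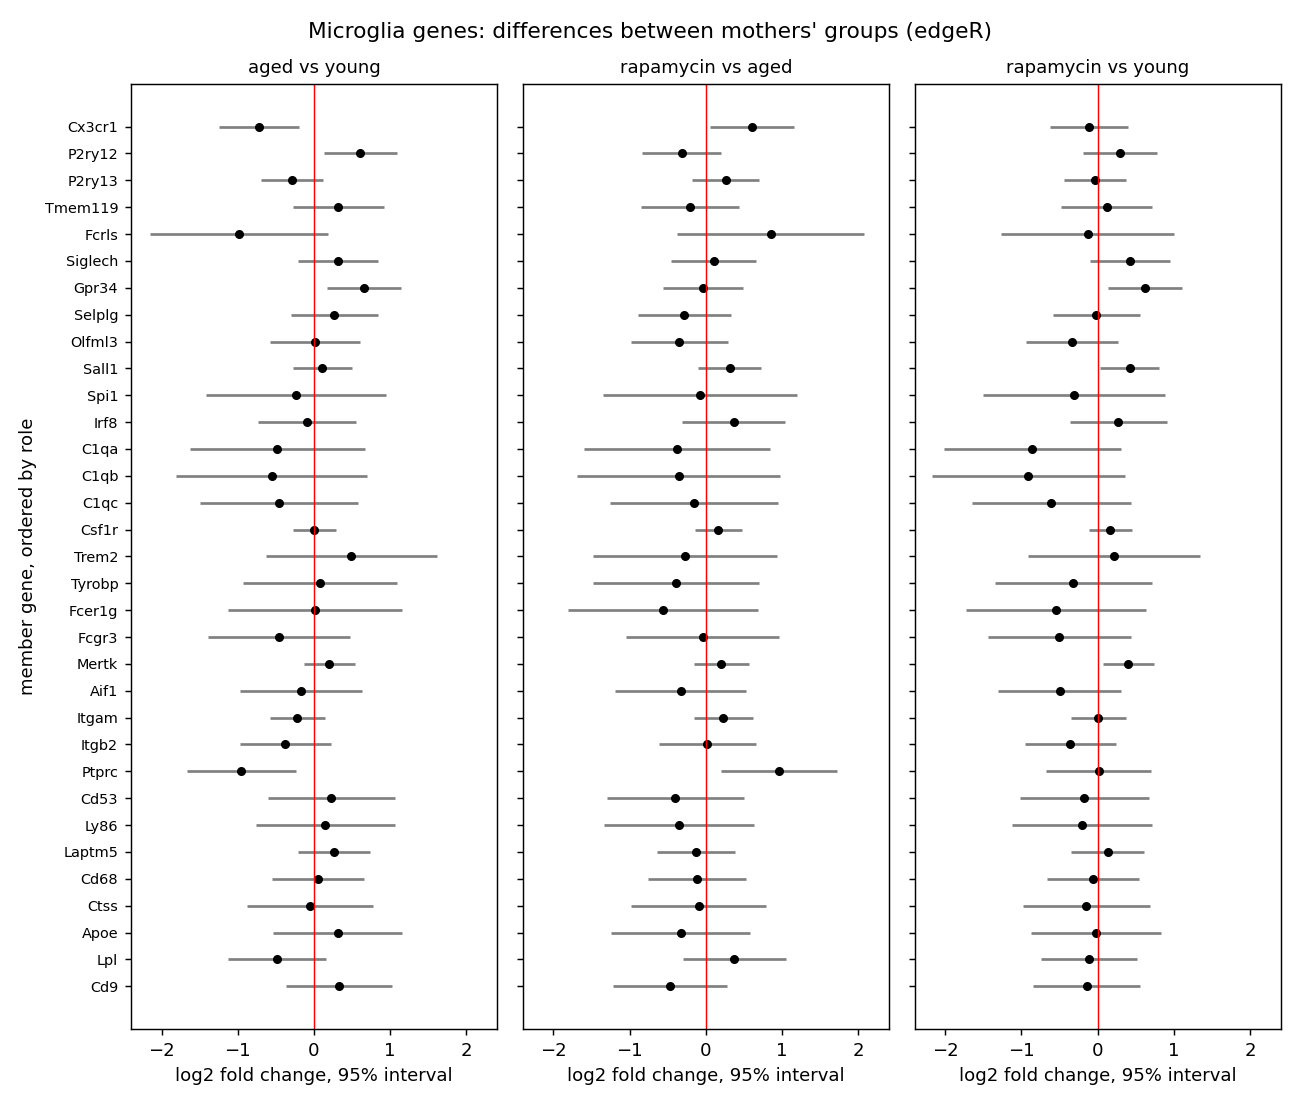
Log2 differences of the 33 tested microglia genes in the 3 comparisons, each with its 95% interval from edgeR. Intervals leave out 0 for 4, 2 and 3 genes before adjustment, and none passed after it.

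Young 2 and rapamycin 2, which were high for microglia genes, were also high for some other lists and low for others. The mean log2 deviation of the microglia genes was 0.55 in young 2 and 0.38 in rapamycin 2, and -0.34 in rapamycin 1. For 80 cytosolic ribosomal protein genes the same libraries gave 0.66, 0.62 and -0.90, for 10 astrocyte genes 0.35, 0.43 and -0.27, and for 10 genes of the oligodendrocyte lineage 0.51, 0.51 and -0.55. For 10 neuronal genes they gave -0.06, -0.23 and 0.07. For 10 endothelial and mural cell genes the order was reversed, at -0.78, -0.55 and 0.71. Young 1 departed from this pattern. Its deviation was 0.09 for the microglia genes and 0.77 for the C1q chains among them. For the ribosomal, astrocyte and oligodendrocyte lists it was -0.22, -0.08 and -0.40, and for the endothelial and mural list 0.32. The summed level of the ribosomal list was 13700 to 31800 CPM in the young group, 20500 to 27800 in the aged group and 10700 to 31100 in the treated group, and that of the endothelial and mural list 92.7 to 269, 122 to 130 and 112 to 306. The part of the astrocyte, oligodendrocyte, neuronal and endothelial lists in the levels of microglia genes was not tested. With the ribosomal level as a covariate in the fit, 0 microglia genes passed in edgeR. Their median log2 difference was -0.20 for aged against young, 0.17 for treated against aged and 0.02 for treated against young, so that its sign changed in each comparison. At an unadjusted p under 0.05 there were 11, 5 and 5 of the 33, with 860, 860 and 1374 of all 14877 genes. Of the 11 for aged against young, P2ry12, Gpr34 and Mertk were higher. Cx3cr1, P2ry13, Ptprc, Fcgr3, Aif1, C1qa, C1qb and C1qc were lower. The log2 difference of Cx3cr1 for aged against young was -0.85 ± 0.18 (edgeR unadjusted p = 0.000643, adjusted p = 0.195). That of Gpr34 for treated against young was 0.72 ± 0.12 (unadjusted p = 0.000109, adjusted p = 0.0852).

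Spread differed with transcript length within the list. The SD within groups of log2(CPM + 1) had a median of 0.39 over the 33 genes, beside 0.25 over all genes tested. It was 0.57 for the 13 microglia genes with a longest coding transcript under 1.5 kb, 0.36 for the 12 of 1.5 to 3 kb and 0.28 for the 8 of 3 kb or more, with all genes at 0.35, 0.23 and 0.24. C1qb, C1qa and Fcrls had the widest spread, at 0.87, 0.79 and 0.77, and Csf1r, Mertk and Itgam the narrowest, at 0.14, 0.19 and 0.21. Across genes, Spearman's rho between length and spread was -0.74 for the 33 genes and -0.04 for 13824 genes. These genes share the same 10 libraries and are not independent, and the length classes were chosen after the values were seen.

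**Figure D5:**
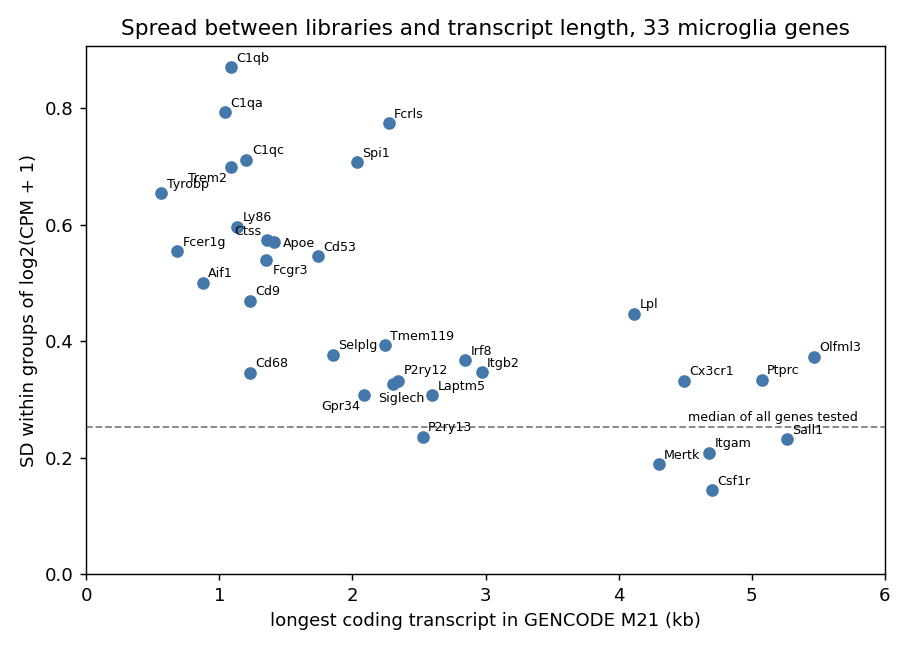
SD within groups of log2(CPM + 1) over the 10 libraries (vertical axis) against the length of the longest coding transcript in kilobases (horizontal axis), for 33 microglia genes. The dashed line is the median of all genes tested, 0.25. The genes under 1.5 kb lie above it, and so do the longer genes except P2ry13, Sall1, Csf1r, Mertk and Itgam.

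Microglia genes outside the list gave no calls either. Of 50 other microglia genes, 49 were tested and 0 passed in any comparison, with median log2 differences of 0.02, 0.04 and 0.01 for aged against young, treated against aged and treated against young. Of 20 further genes of disease-associated microglia, 17 were tested and 0 passed, and the smallest unadjusted p in edgeR was that of Axl, a receptor of the same family as Mertk, for treated against young (0.49 ± 0.15, unadjusted p = 0.0072, adjusted p = 0.999). Axl did not stand for the list: in that comparison 5 of the 17 were above 0 and 12 below, with a median of -0.10. Of 3 with an edgeR unadjusted p under 0.05, 1 was higher and 2 were lower. All 11 genes of a list of microglial receptor ligands and complement components were tested and 0 passed. Not all of them have a receptor among the listed genes. Among them the fractalkine gene Cx3cl1 stood at 367 to 655 CPM, and Csf1 at 22.2 to 29.4. Of 16 inflammatory mediators, 8 were tested and 0 passed. The same libraries had calls elsewhere. Over all genes tested, edgeR called 7 (0.0471%) for aged against young mothers and 8 (0.0538%) for treated against young mothers, all of them higher. Among 12 immediate early genes, which neurons induce on activity, were all 7 of the former (Fos, Fosb, Egr2, Egr4, Arc, Nr4a1 and Sik1). The same list held 6 of the latter (Fos, Fosb, Egr2, Sik1, Ier2 and Dusp1). It was chosen with earlier results of these data known, so these counts are a description and not an independent check.

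In the 7 oocyte libraries of the series (2 from young, 2 from aged and 3 from treated females, about 10 oocytes each, prepared by another protocol), the listed genes differed in whether they were detected. Of the 34 symbols, 7 were at 0 counts in all 7 libraries (P2ry12, P2ry13, Siglech, Trem2, Aif1, Ly86 and Cst7), and 15 had at most 3 counts in every library. Another 7 exceeded 3 counts in all libraries, led by Lpl at 56.5 to 195 CPM and Mertk at 6.61 to 57.4 CPM, here relative to plain library totals with no TMM scaling. C1qb held 9 to 53 counts per oocyte library while C1qa held 0 to 6 and C1qc 0 to 5. No test was made between the tissues.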

How the data were processed

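Poly(A) RNA was sequenced from 17 libraries. The authors deposited raw gene counts, 1 table per library. Per the submitters' processing notes the tools were STAR and HTSeq on mm10. Versions, annotation and strand setting: not given in the sources used here. The 5 summary rows that name no gene were left out: in hippocampus they held 11.6% to 16.0% of the total as reads outside genes, 5.09% to 8.01% without a unique position and 1.66% to 1.92% ambiguous.

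The 10 hippocampus libraries were fitted together with edgeR 4.0.16 in R 4.3.3 (limma 3.58.1): filterByExpr, TMM scaling, group means, glmQLFit and glmQLFTest, with Benjamini-Hochberg adjustment over 14877 genes and a threshold of 0.05. The biological coefficient of variation was 23.5%. Levels are TMM-normalised CPM, and the pseudocount for logs was 1. DESeq2 1.42.0 was an alternative. The fitting code was checked on simulated counts. Figures used matplotlib 3.10.9 in Python 3.11.15. A floor of 3 counts covers counting error only.

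Libraries were grouped by the mother's group in the labels. No replicate pair agreed within counting noise (chi-square per degree of freedom at least 12.3). The listed genes and all gene lists were chosen with earlier results of these data known. Values in every library are given for the 4 genes of smallest unadjusted p per comparison, the 2 of highest mean CPM per role and any gene with an outlying library. Other listed genes are given by range, and C1qc, as the partner of C1qa and C1qb, was added after its values were seen. Lengths come from GENCODE M21 and promoters from RefSeq on GRCm38.p6, where 25 of the listed genes matched.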

Additional observations from a re-analysis of the deposited data

Results flagged for a closer look

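Apoe in offspring of young mothers had 1 library far from the others. Young 2 stood at 4976 CPM and the nearest of the other 3 libraries at 2093, and this gap was 0.875 of the group's whole range, above Dixon's 95% critical value for 4 samples. Of 33 groups of 4 examined, 1 per tested gene, this was the only one past that value, and chance gives about 1 in 20.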

How the results depend on the processing

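In all 19 alternatives per comparison, 0 of the microglia genes tested passed the threshold. Those tested were 25 with a mean of at least 10 CPM, 34 with no filter on low counts and 33 otherwise. The 12 named contrasts kept their sign wherever the gene was tested. Leaving out 1 library in turn gave a median log2 difference of -0.11 to 0.21 for aged against young, -0.44 to 0.03 for treated against aged and -0.29 to 0.13 for treated against young. Counts over all genes moved more, and the cause was not tested. For aged against young, 7 genes became 2 with only those groups in the fit, 52 with DESeq2 and 11 with the ribosomal covariate, and 0 to 15 without 1 library (0 without young 1, 15 without young 2, 2 without young 3, aged 1, aged 3, rapamycin 1 or rapamycin 3). For treated against aged, 0 became 2 with those groups alone, 12 with DESeq2, and 0 to 1 without 1 library (1 without young 3). For treated against young, 8 became 5 with a mean of at least 10 CPM, 5 with those groups alone, 36 with DESeq2, 16 with the covariate, and 2 to 10 without 1 library (2 without young 1, 3 without rapamycin 1, 4 without young 3, 5 without aged 1 or rapamycin 3). With the replicate number as a block, the count for treated against young was 4, microglia genes called stayed at 0, and their medians were -0.06, -0.22 and -0.14. The labels do not pair the numbers: 6 of 9 same-numbered pairs correlated over 0.1 (-0.23 to 0.71), and 4 of 10 libraries correlated best with their own number. Young 4 has no library of its number in the other groups and could not be among those 4. Precision differed between genes: with 3 or 4 libraries per group, the 95% interval for aged against young ran from -0.28 to 0.29 for Csf1r and from -1.80 to 0.70 for C1qb.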
